A study of Mus musculus with 12 samples.

Results

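Tumor-derived astrocytes were compared with GNPs (granule neuron progenitors) from mouse medulloblastoma, whose neoplastic cells they are, over 8 of the 12 RNA-seq libraries of the study, 4 of each kind. The members were chosen by the cell type label of each library and not by any measured value. The remaining 4 libraries are normal astrocytes. They entered the gene filter, the scaling and the fits, where they add to the estimate of the spread between libraries. The tumor-derived astrocyte and normal astrocyte libraries carry the strain label C57BL/6, while the GNP libraries 1 to 4 carry C57BL/7, C57BL/8, C57BL/9 and C57BL/10. The sources used here do not give the genotype of the tumor model, the age, the sex, any treatment or the way cells were recognised for capture. Per the labels every library was made from single cells lifted by a laser from frozen sections, and the cDNA was amplified as short 3′ ends. All 4 GNP titles end in cul, while those of tumor-derived astrocytes end in YA and those of normal astrocytes in AD. A sample sheet deposited with the counts calls the first GNP entry cultured and the third GNP entry only tumor GNPs. Culture, if it was used, is named only for GNPs and cannot be told apart from cell type. Whether it also differed among the GNP libraries is not settled by these labels.

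Granule neurons of the cerebellum arise from GNPs, which proliferate after birth. These progenitors carry the transcription factor Atoh1, divide in response to the ligand Sonic hedgehog, which acts through the receptor Ptch1, the transducer Smo and the Gli factors, and can give rise to medulloblastoma when that pathway stays active. Astrocytes are the glia that take up glutamate and potassium, handle water, supply lactate and cholesterol to neurons and contact blood vessels. The title of the series speaks of astrocytic trans-differentiation in this tumor, so the comparison asks which transcripts set the astrocytes of the tumor apart from its progenitors.

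Total counts were 8679971 to 12626596 in tumor-derived astrocytes, against 8154401 to 8673023 in GNPs, and genes with at least 1 count numbered 19174 to 20460 in tumor-derived astrocytes, against 16633 to 17938 in GNPs. Levels below are CPM, counts relative to library size with TMM scaling, and are listed for libraries 1 to 4 in turn. Averages count the close trio described next once. GNP libraries 1, 2 and 4 were nearly identical, with a chi-square per degree of freedom of 1.21 to 1.62 over genes of few counts, against 4.2 to 12.19 for the other pairs within either group. Over all genes it was 1.43 between libraries 2 and 4 and 6.59 to 7.52 for their pairs with library 1, against 24.03 to 78.35 for the other pairs. They are therefore treated as 1 sample in the second of 2 fits, and a gene is called higher or lower only when both fits passed an adjusted p of 0.05 in the same direction. Values written with ± are log2 fold changes of tumor-derived astrocytes over GNPs with standard errors from the fit of 12 libraries. Where a pair of adjusted p-values is given, it is from edgeR's quasi-likelihood test with all 12 libraries and then with that trio summed. Tumor-derived library 1 stood apart from libraries 2 to 4, with a Pearson correlation across genes of 0.915 to 0.916 with them, against 0.962 to 0.972 among them. No label ties a library to an animal, so p-values measure the spread between libraries, normal astrocytes included, and are too small if libraries share an animal. Pairs of normal astrocyte libraries differed more, with a chi-square per degree of freedom of 86.78 to 184.34 over all genes. In bulk libraries, fewer cells of a type and less RNA per cell cannot be told apart.

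Transcripts of the sex chromosomes followed the groups, in genes named after their values were seen. Xist, the RNA of the inactive X chromosome, was at 7.48, 0, 0 and 0 CPM in tumor-derived astrocytes, against 52.4, 49.1, 90.9 and 51.4 CPM in GNPs. Kdm5d, a Y-linked histone demethylase, was at 10.6, 22.5, 14.3 and 23 CPM in tumor-derived astrocytes, against 0, 0.102, 0 and 0 CPM in GNPs. The Y-linked Ddx3y and Eif2s3y were present in all 4 tumor-derived libraries and at 0 in all 4 GNP libraries. None of these 4 genes passed both fits (adjusted p of 0.0493 and 0.132 for Xist, and of 0.00643 and 0.069 for Kdm5d), but the libraries did not overlap in any of them. Sex, strain label and cell type therefore cannot be told apart in this comparison.

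Of 14393 genes tested, 1129 (7.84%) were higher and 628 (4.36%) were lower in tumor-derived astrocytes than in GNPs, 12.2% in either direction. The 4 libraries of each group did not overlap in 1124 of the 1129 higher genes and in 627 of the 628 lower ones, where 25.8% of all tested genes did not overlap with tumor-derived astrocytes above and 22.1% with them below. The median log2 fold change over all tested genes was 0.08. A total of 196 higher genes were at 0 in every GNP library, and 4 lower genes were at 0 in every tumor-derived library. With all 12 libraries alone, treating the close trio as 3 samples, 2900 genes (20.1%) were higher and 1852 (12.9%) lower. The number of calls rested on single libraries, and fell to 438 higher (2.87%) and 138 lower genes (0.905%) without GNP library 3, where the summed trio is the only GNP sample left and is assumed to vary like the other groups. It was 619 (4.11%) and 173 (1.15%) without tumor-derived library 2, 677 (4.51%) and 180 (1.2%) without library 3, and 643 (4.26%) and 235 (1.56%) without library 4.

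**Figure D1:**
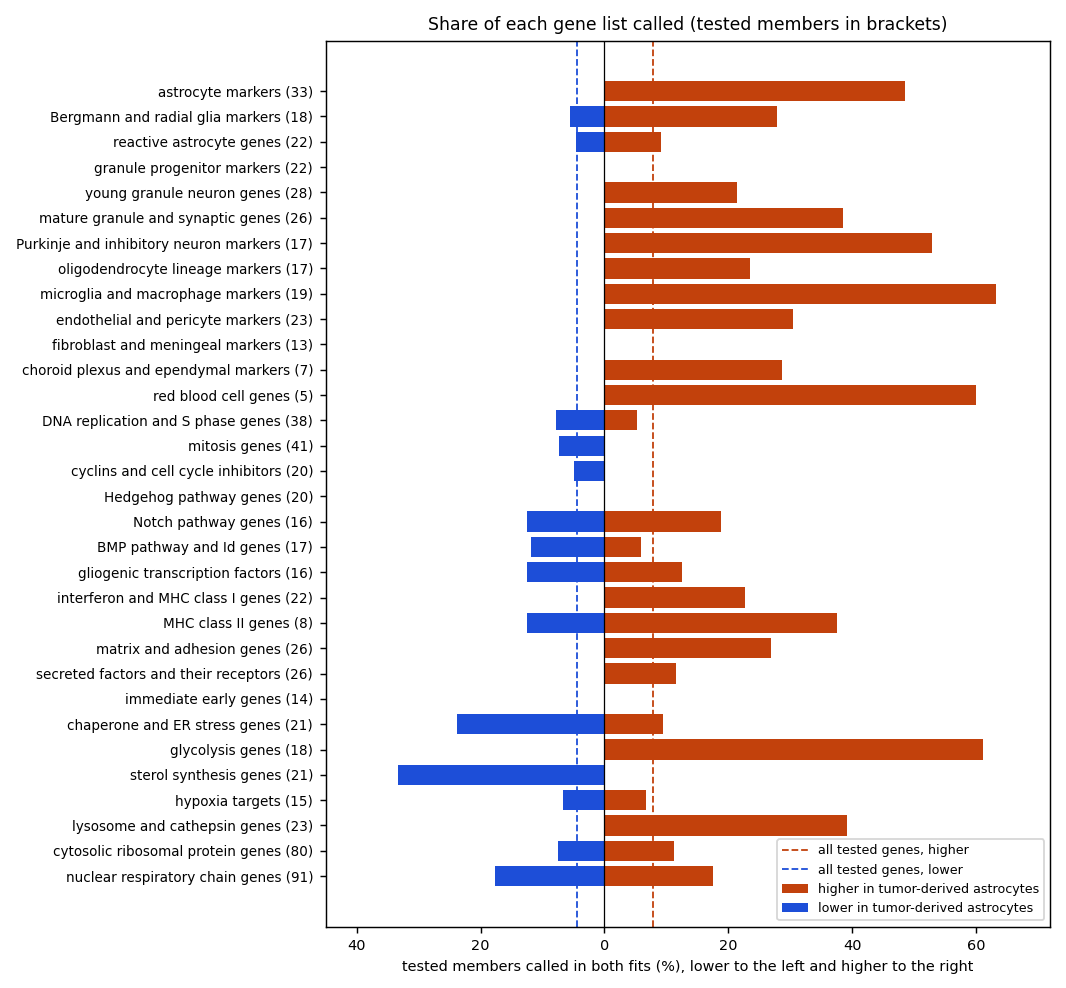
Bars show the percentage of tested members of each gene list that were called in both fits, higher in tumor-derived astrocytes to the right and lower to the left, and dashed lines mark 7.84% and 4.36% of all tested genes. Microglial, glycolysis, red blood cell, Purkinje and astrocyte lists reached 48.5% or more higher, while sterol synthesis genes had 33.3% lower and 0 higher.

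Astrocyte transcripts were higher in tumor-derived astrocytes as a group. Of 33 tested astrocyte markers, 16 were higher and 0 were lower, where 7.84% of all genes were higher. The list's median log2 fold change was 2.61 (2.57 with genes at 0 in GNPs set to 3 counts). Fitted without normal astrocytes, 22 of 32 were higher and 1 lower, where 17.4% of all genes were higher and 13.8% lower. Aldh1l1, a folate enzyme used as a marker of all astrocytes, was at 221, 306, 229 and 340 CPM in tumor-derived astrocytes, against 1.62, 0.306, 0.83 and 0.64 CPM in GNPs (log2 fold change 8.32 ± 0.58 SE, adjusted p of 1.77e-06 and 0.000253). Every tumor-derived library lay far above every GNP library. The endfoot water channel Aqp4 was at 12.7, 7.49, 7.16 and 7.77 CPM in tumor-derived astrocytes and was nearly absent from GNPs, with 0, 0.102, 0 and 0 CPM (adjusted p of 3.12e-05 and 0.00163).

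The metal-binding protein gene Mt3 was at 209, 780, 505 and 593 CPM in tumor-derived astrocytes and at 10.2, 4.89, 11.5 and 5.66 CPM in GNPs (6.02 ± 0.45). Library 1 was the lowest tumor-derived library for this gene, as it was for Aldoc and Apoe, yet it stayed above all GNPs. Aldoc, the aldolase of astrocytes and Purkinje cells, was at 212, 516, 496 and 692 CPM in tumor-derived astrocytes and at 51.4, 55.6, 16.8 and 53.5 CPM in GNPs (3.43 ± 0.46, adjusted p of 0.000192 and 0.00625). Apoe, the lipid carrier secreted by glia and also by macrophages, was named after its values were seen and was at 1050, 2920, 1930 and 3370 CPM in tumor-derived astrocytes and at 37.5, 34.1, 98.9 and 29.2 CPM in GNPs (5.53 ± 0.5). Acsbg1, Ndrg2, Slc4a4, Hepacam, Clu, Agt, Cbs, Fgfr3, Atp1b2 and Dio2 were also among the members called higher. The list count was 10 to 19 when any 1 of the 8 libraries was left out, lowest without GNP library 3, a setting in which 2.87% of all genes were higher.

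**Figure D2:**
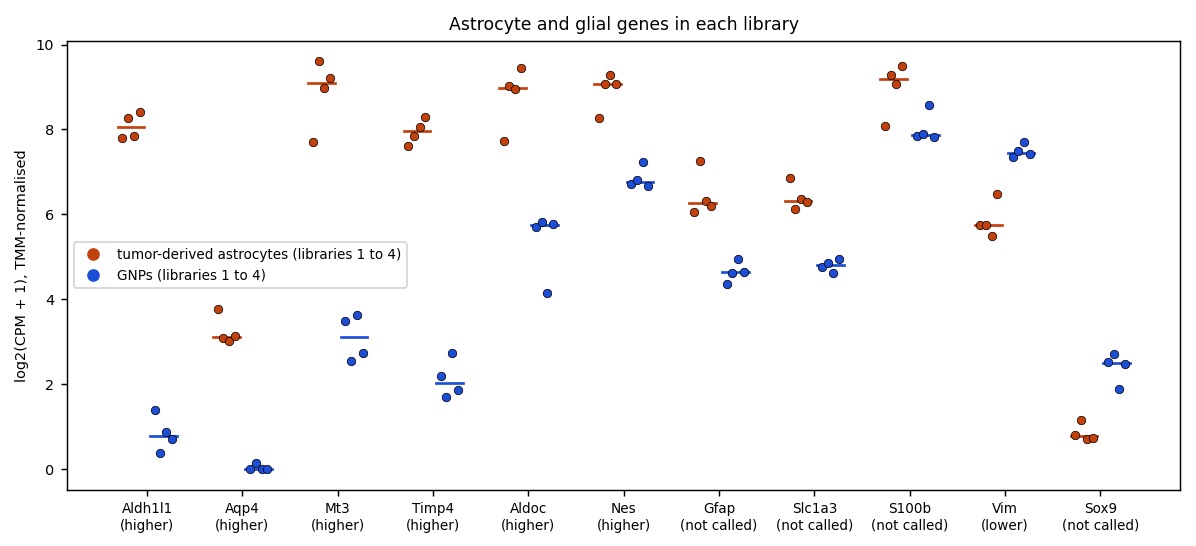
Points are the log2(CPM + 1) level of each of 4 tumor-derived astrocyte libraries (left of each pair) and 4 GNP libraries (right), bars are medians, and the call of each gene is under its name. Aldh1l1, Aqp4, Mt3, Timp4, Aldoc and Nes were higher, Vim was lower, and Gfap, Slc1a3, S100b and Sox9 were not called.

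Not all defining astrocyte genes passed both fits. Gfap, the intermediate filament used to stain astrocytes, was at 66, 152, 79.3 and 72.2 CPM in tumor-derived astrocytes and at 19.7, 23.8, 30 and 24.2 CPM in GNPs, with no overlap but adjusted p of 0.142 and 0.419. Slc1a3, the glutamate transporter GLAST, was at 115, 68.6, 81.5 and 76.8 CPM in tumor-derived astrocytes and at 26.1, 28.2, 23.8 and 29.9 CPM in GNPs (adjusted p of 0.037 and 0.189). For S100b, a calcium-binding protein, library 1 of the tumor-derived astrocytes at 268 CPM lay below GNP library 3 at 380 CPM, and its adjusted p were 0.013 and 0.193. The glutamate transporter Slc1a2 averaged 109 CPM in tumor-derived astrocytes against 187 CPM in GNPs and was not called. The glial transcription factor Sox9 was at 0.651 to 1.23 CPM in tumor-derived astrocytes, below the 2.7 to 5.6 CPM of GNPs, without a call. The gap junction gene Gja1 had too few counts to be tested. Normal astrocytes, which share the estimate of the spread, were at 0.946 to 41.1 CPM for Gfap and at 67.5 to 658 CPM for Slc1a3.

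Radial glial and Bergmann glial transcripts were mostly on the higher side in tumor-derived astrocytes. Of 18 tested members 16 had a positive log2 fold change, against 7468 of all 14393 tested genes, with a list median of 2.18. A total of 5 were called higher (27.8%) and 1 lower (5.56%), against 7.84% and 4.36% of all genes. Fitted without normal astrocytes, 12 of 16 were higher and 1 lower, where 17.4% of all genes were higher and 13.8% lower. Timp4, an inhibitor of metalloproteinases, was at 193, 230, 267 and 311 CPM in tumor-derived astrocytes and at 3.56, 2.24, 5.71 and 2.67 CPM in GNPs (6.14 ± 0.44, adjusted p of 2.05e-06 and 0.000393). Adcyap1r1, the receptor of the neuropeptide PACAP, was higher as well, at 150, 168, 198 and 190 CPM in tumor-derived astrocytes and 35, 36, 40.7 and 37.2 CPM in GNPs. The intermediate filament genes Nes and Vim were called in opposite directions. Nes was higher, at 309, 537, 624 and 539 CPM in tumor-derived astrocytes against 105, 111, 150 and 100 CPM in GNPs (2.1 ± 0.32, adjusted p of 0.000457 and 0.0219). Vim was lower, at 53.2, 52.7, 43.9 and 87.8 CPM in tumor-derived astrocytes against 163, 178, 207 and 170 CPM in GNPs (-1.59 ± 0.27, adjusted p of 0.000823 and 0.0125). Both calls were lost when each library was corrected for transcript GC content, described at the end, and the list then had 6 higher and 0 lower, where 5.83% of all genes were higher and 2.07% lower. It had 2 higher and 0 lower without GNP library 3.

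Genes of reactive astrocytes, those induced in glia by injury, gave 2 higher and 1 lower of 22 tested, close to the share over all genes. The higher ones were Psmb8, an immunoproteasome subunit, and the lipid kinase Sphk1, and the lower one was Vim. Lcn2, Serpina3n, Timp1 and Osmr did not pass both fits. Of 16 tested gliogenic transcription factors, Rfx4 and Nfix were higher while Nfib and Tcf4 were lower, 12.5% in each direction against 7.84% and 4.36% of all genes. Under the GC correction Nfix, Nfib and Tcf4 lost their calls, leaving 1 higher and 0 lower. Nfib, a nuclear factor I protein of glial and granule lineages, was at 368, 326, 322 and 377 CPM in tumor-derived astrocytes and at 699, 686, 920 and 723 CPM in GNPs (-1.12 ± 0.22, adjusted p of 0.00213 and 0.0164). Rfx4, a transcription factor of neural progenitors and astrocytes, was at 14.6, 4.42, 5.75 and 9.79 CPM in tumor-derived astrocytes and at 0.108, 0, 0.207 and 0 CPM in GNPs (6.56 ± 1.18, adjusted p of 0.00126 and 0.0275). Nfia averaged 161 CPM in tumor-derived astrocytes against 268 CPM in GNPs, Zbtb20 averaged 252 CPM in tumor-derived astrocytes against 283 CPM in GNPs, and neither was called. Without GNP library 3 the reactive list had 1 higher and 0 lower, and the transcription factor list 0 in both directions. With normal astrocytes left out, the reactive list had 5 higher and 1 lower of 19. The transcription factor list then had 3 higher and 5 lower of 16, where 17.4% of all genes were higher and 13.8% lower.

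Granule lineage identity and Hedgehog transcripts were present in both groups, and no member of either list passed both fits with normal astrocytes included. Of 22 tested granule progenitor markers and 20 tested Hedgehog pathway genes, 0 were higher and 0 lower, with medians of -0.17 and -0.4 on the log2 scale. With all 12 libraries alone, 3 granule progenitor markers were higher and 4 lower, and 3 Hedgehog genes were higher and 2 lower. That fit called 20.1% of all genes higher and 12.9% lower. Under the GC correction 3 granule progenitor markers were lower and 0 higher, where 2.07% of all genes were lower, and 1 Hedgehog gene was called in each direction. DESeq2 called 2 granule progenitor markers lower and 3 Hedgehog genes higher, where it called 15.7% of all genes higher and 6.75% lower. Fitted without normal astrocytes, 3 of 20 granule progenitor markers were higher and 4 lower. Of 20 Hedgehog genes, 2 were then higher and 4 lower, where 17.4% of all genes were higher and 13.8% lower. Atoh1 was at 3.74, 3.93, 4.99 and 13.2 CPM in tumor-derived astrocytes, against 56.6, 54.8, 24.7 and 59.4 CPM in GNPs (-2.91 ± 0.56). Its libraries did not overlap, but its adjusted p was 0.00322 with 12 libraries and 0.0509 with the trio summed, just beyond the threshold. Zic1, a zinc finger factor of the granule lineage, was at 99.6, 102, 90.7 and 96.8 CPM in tumor-derived astrocytes and at 76.9, 62.8, 62.3 and 67.6 CPM in GNPs (0.53 ± 0.25). Barhl1, a homeobox factor of the same lineage, overlapped between groups at 57 to 146 CPM in tumor-derived astrocytes and 106 to 184 CPM in GNPs.

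Gli1, both a transducer and a target gene of the pathway, was at 66.6, 56.6, 68 and 68.7 CPM in tumor-derived astrocytes and at 55.6, 59.6, 41.4 and 56.7 CPM in GNPs, and the groups overlapped (0.29 ± 0.81, adjusted p of 0.815 and 0.889). Ptch1, the receptor, averaged 8.44 CPM in tumor-derived astrocytes against 2.97 CPM in GNPs (adjusted p of 0.0323 and 0.143). Other targets, named after their values were seen, differed in direction without a call. Hhip, a ligand-binding inhibitor of the pathway, was at 11.4 to 19.7 CPM in tumor-derived astrocytes and at 0.311 to 1.39 CPM in GNPs (3.93 ± 0.91, adjusted p of 0.00558 and 0.0664). Sfrp1, a secreted modulator of Wnt signalling, was at 566 to 716 CPM in tumor-derived astrocytes and at 1020 to 1140 CPM in GNPs (-0.79 ± 0.45). The ligand gene Shh was at 0, 0, 0 and 1.44 CPM in tumor-derived astrocytes and at 0.216, 0, 0 and 0 CPM in GNPs, too low to be tested.

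Proliferation transcripts were abundant in tumor-derived astrocytes. Mki67, which is made by cycling cells, was at 656, 934, 986 and 914 CPM in tumor-derived astrocytes and at 946, 967, 931 and 962 CPM in GNPs (-0.13 ± 0.37, adjusted p of 0.823 and 0.844). The summed level of the 43 mitosis genes was 3050 to 3520 CPM in tumor-derived astrocytes, below 5070 to 5230 CPM in GNPs. Of 41 tested members, 36 had a negative log2 fold change, with a median of -1.21. Every tumor-derived library lay below every GNP library in 29 of the 43 members and above in 2, against 22.1% and 25.8% of tested genes. Leaving the normal astrocytes out gave 23 lower and 1 higher, where 13.8% of all genes were lower and 17.4% higher. With all 12 libraries alone, 16 were lower, where 12.9% of all genes were lower. Both fits with normal astrocytes included called 3 (7.32%, against 4.36% of all genes) lower and 0 higher. These 3 were Ube2c, which supplies ubiquitin to the anaphase-promoting complex, the spindle checkpoint kinase Bub1b and the kinetochore gene Ndc80. Ube2c was at 99.1, 40.3, 71.8 and 40.4 CPM in tumor-derived astrocytes and at 309, 329, 253 and 336 CPM in GNPs (-2.29 ± 0.33, adjusted p of 0.000673 and 0.0156). The count was 0 without GNP library 3, where 0.905% of all genes were lower. Top2a, the DNA topoisomerase of dividing cells, was at 76 to 180 CPM in tumor-derived astrocytes and at 300 to 348 CPM in GNPs (adjusted p of 0.0237 and 0.13).

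With normal astrocytes in the fits, S phase genes were called at about the rate of all genes. Of 38 tested, 2 were higher (5.26%) and 3 lower (7.89%). Leaving the normal astrocytes out gave 3 higher and 12 lower of 38, where 17.4% of all genes were higher and 13.8% lower. Of the 40 members, 19 had every tumor-derived library below every GNP library and 4 the reverse, against 22.1% and 25.8% of tested genes. The calls given next are those with normal astrocytes in the fits. Pcna and Rrm2 lost their calls under the GC correction, which left 2 higher and 1 lower. The clamp loader subunit Rfc2 was at 667, 1160, 1280 and 915 CPM in tumor-derived astrocytes against 330, 350, 240 and 333 CPM in GNPs, and the DNA ligase Lig1 was higher too (1.55 ± 0.2). The nucleotide enzymes Dut and Rrm2 and the clamp gene Pcna were lower. Pcna was counted at only 0.374, 0.491, 0.868 and 3.17 CPM in tumor-derived astrocytes and 13.5 to 25.1 CPM in GNPs, and its reads may be shared with near-identical copies. The S phase list had 0 calls in either direction without GNP library 3. Of 20 cyclins and cell cycle inhibitors, the growth arrest gene Gadd45a was the only one called, lower at 0.246 to 1.06 CPM in tumor-derived astrocytes against 5.5 to 15.9 CPM in GNPs. This is 5% of the list, against 4.36% of all genes, and the call was lost without tumor-derived library 1, 2 or 3. Leaving the normal astrocytes out gave 5 lower and 0 higher of these 20, against 13.8% and 17.4% of all genes. Ccnd2, the cyclin of dividing GNPs, overlapped between the groups, at 533, 1300, 1170 and 1520 CPM in tumor-derived astrocytes and an average of 772 CPM in GNPs.

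Markers of several other cell types were also higher in tumor-derived astrocytes. Of 19 tested microglial and macrophage markers 12 were higher (63.2%, against 7.84% of all genes) and 0 lower. Their median log2 fold change was 6.61 (5.49 with genes at 0 in GNPs set to 3 counts). The summed level over 26 members was 1060 to 1200 CPM in tumor-derived astrocytes and 8.82 to 31.3 CPM in GNPs. C1qb, a complement subunit made by microglia, was at 235, 435, 415 and 347 CPM in tumor-derived astrocytes against 0.216, 0, 0 and 0 CPM in GNPs (adjusted p of 5.61e-07 and 0.00016). Aif1, known as Iba1, was at 79.4, 170, 196 and 173 CPM in tumor-derived astrocytes and at 0 in all GNPs, which is at least 490-fold higher with each GNP library set to 3 counts. Trem2, a lipid receptor of microglia, was at 49.3, 91.7, 90.8 and 80.9 CPM in tumor-derived astrocytes and at 0 in all GNPs, at least 248-fold higher. Defining microglial genes P2ry12, Ptprc and Spi1 had too few counts to be tested. Whether microglial RNA had a part in the other differences was not tested.

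Of 23 tested endothelial and pericyte markers 7 were higher (30.4%, against 7.84% of all genes) and 0 lower. Their summed level was 875 to 1700 CPM in tumor-derived astrocytes and 384 to 494 CPM in GNPs. Cldn5, a tight junction protein of brain endothelium, was at 132, 161, 157 and 125 CPM in tumor-derived astrocytes and at 0 in all GNPs, at least 457-fold higher (adjusted p of 5.61e-07 and 6.72e-05). Higd1b, a pericyte gene outside the list, was at 21.4, 50.9, 62.7 and 89.9 CPM in tumor-derived astrocytes and also at 0 in all GNPs. The endothelial count was 2 without tumor-derived library 2 and 2 without library 3. Hemoglobin transcripts followed the same order, since 3 of 5 tested red blood cell genes (60%) were higher. Their summed level was 71.7 to 241 CPM in tumor-derived astrocytes against 0.102 to 0.432 CPM in GNPs. Oligodendrocyte lineage genes gave 4 higher (23.5%) and 0 lower of 17, led by the myelin genes Mobp and Cnp. Their summed level was 300 to 429 CPM in tumor-derived astrocytes and 87.8 to 90.8 CPM in GNPs. Fibroblast markers gave 0 calls of 13 tested, with a summed level of 165 to 242 CPM in tumor-derived astrocytes and 73.4 to 160 CPM in GNPs. Choroid plexus and ependymal markers gave 2 higher (28.6%) and 0 lower of 7. Their summed level went the other way, with 61.7 to 112 CPM in tumor-derived astrocytes and 144 to 169 CPM in GNPs. Of the lymphocyte markers 13 of 14 were too low to be tested. Without GNP library 3, oligodendrocyte genes had 2 higher, red blood cell genes 2 and choroid plexus genes 1. The part of these cell types in the other results was not tested.

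**Figure D3:**
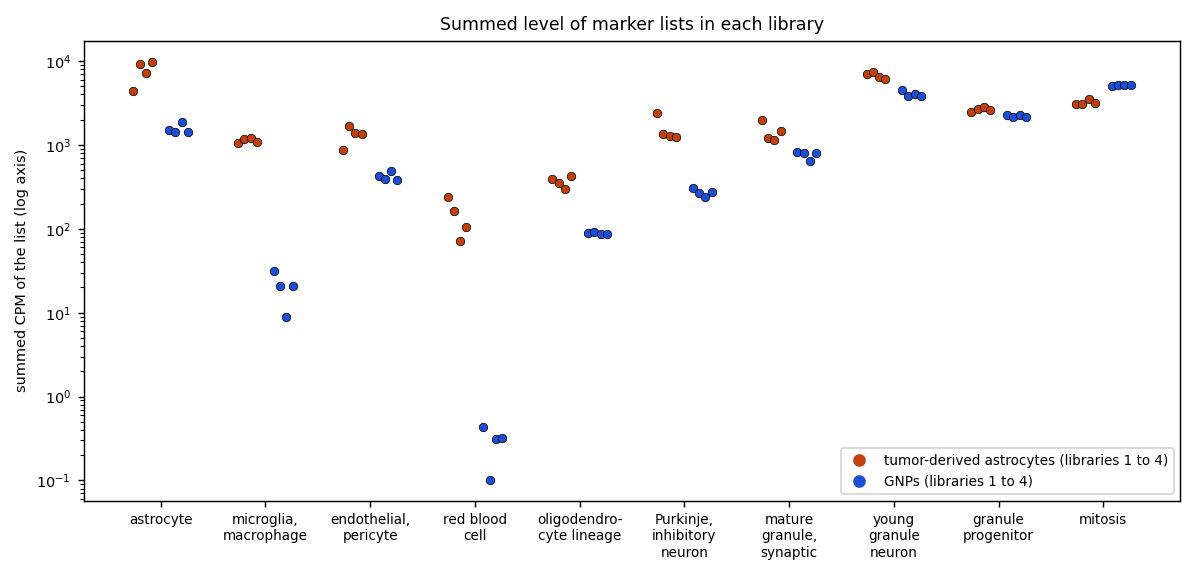
Each point is the summed CPM (log axis) of a gene list in 1 of 4 tumor-derived astrocyte libraries (left of each pair) or 4 GNP libraries (right). Microglial sums lay at 1060 to 1200 CPM in tumor-derived astrocytes against 8.82 to 31.3 CPM in GNPs, while granule progenitor sums lay at 2460 to 2810 CPM in tumor-derived astrocytes against 2150 to 2270 CPM in GNPs.

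Transcripts of differentiated neurons were higher in tumor-derived astrocytes than in GNPs. Of 17 tested Purkinje and inhibitory neuron markers 9 were higher (52.9%), of 26 mature granule and synaptic genes 10 (38.5%). Of 28 young granule neuron genes 6 were higher (21.4%). The share over all genes was 7.84%, and 0 members were lower in all 3 lists. The medians were 3.34, 1.79 and 0.07 on the log2 scale, or 2.9 and 1.61 for the first pair of lists with genes at 0 in GNPs set to 3 counts. Pcp2, a Purkinje cell gene, was at 166, 34.9, 32.5 and 37.2 CPM in tumor-derived astrocytes and at 0 in all GNPs, at least 215-fold higher (adjusted p of 9.39e-05 and 0.00175). Tumor-derived library 1 was highest for it, as for the summed Purkinje list, at 2420 CPM against 1240 to 1360 CPM in libraries 2 to 4 and 243 to 308 CPM in GNPs. Gabrd, the GABA receptor subunit of mature granule neurons, was at 98.3, 119, 48.7 and 184 CPM in tumor-derived astrocytes and at 0 in all GNPs, at least 357-fold higher. The vesicular glutamate transporter Slc17a7 was at 39, 29.1, 17.5 and 34.1 CPM in tumor-derived astrocytes and at 0.972, 1.02, 1.45 and 0.96 CPM in GNPs (4.75 ± 0.42). Rbfox3, the neuronal splicing factor NeuN, was named after its values were seen and was at 1530, 1630, 950 and 951 CPM in tumor-derived astrocytes against 244, 136, 132 and 141 CPM in GNPs (2.95 ± 0.52).

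Among early neuronal genes named by rule, neither Dcx nor Neurod1 was called. Dcx, a microtubule protein of newborn neurons, was at 153, 76.5, 98.5 and 63.7 CPM in tumor-derived astrocytes and at 135, 137, 143 and 136 CPM in GNPs. Neurod1, which drives granule neuron differentiation, was at 109, 54.2, 54.2 and 50.7 CPM in tumor-derived astrocytes and at 36.8 to 41.9 CPM in GNPs, with no overlap (0.78 ± 0.37, adjusted p of 0.121 and 0.38). Without GNP library 3 the young granule neuron list had 0 members called, the mature list 7 and the Purkinje list 5. Under the GC correction the young list had 2, where 5.83% of all genes were higher.

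Immune transcripts rose beyond the microglial list, with 22.7% of tested interferon and MHC class I genes higher, against 7.84% of all genes. Of 22 tested interferon and MHC class I genes 5 were higher and 0 lower, and the count was 5 to 7 when any 1 library was left out. Irf7, a regulator of interferon genes, was at 13.5, 63.3, 39.6 and 31.7 CPM in tumor-derived astrocytes and at 0 in all GNPs, at least 117-fold higher. Psmb8 was at 70.3, 101, 108 and 60.8 CPM in tumor-derived astrocytes and at 2.16, 1.32, 4.88 and 2.45 CPM in GNPs (4.97 ± 0.58, adjusted p of 6.74e-05 and 0.00519). The summed list was at 685 CPM in tumor-derived library 1 and at 2500 to 2590 CPM in libraries 2 to 4, against 256 to 306 CPM in GNPs. Of 8 tested MHC class II genes 3 were higher (37.5%) and 1 lower (12.5%), against 7.84% and 4.36% of all genes. H2-Ab1, a class II chain, was at 66.7, 26.7, 37.6 and 126 CPM in tumor-derived astrocytes and at 0.108, 0, 0 and 0 CPM in GNPs, and the invariant chain Cd74 was at 69.1 to 102 CPM in tumor-derived astrocytes and at 0 to 0.432 CPM in GNPs. Rfxap, a factor of class II promoters, was the lower member, and the 4 class II calls were all lost without GNP library 3.

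Several matrix genes were higher in tumor-derived astrocytes. Of 26 tested matrix and adhesion genes 7 were higher (26.9%, against 7.84% of all genes) and 0 lower, with a median of 2.88. The perineuronal proteoglycan Ncan was at 77.9, 176, 188 and 194 CPM in tumor-derived astrocytes and at 15.1, 16.8, 19.2 and 14.5 CPM in GNPs (3.28 ± 0.33, adjusted p of 1.98e-05 and 0.00307). Bcan, a related proteoglycan, was also higher (2.94 ± 0.28). The laminin chains Lama4 and Lamb2, Sparc, Timp2 and Tnr made up the rest. The list count was 4 without tumor-derived library 2 and 4 without library 4. Of 26 tested secreted factors and receptors 3 were higher, namely Il4ra, Pdgfa and the neurotrophin receptor Ntrk2, and there was 1 without GNP library 3. These 3 are 11.5% of the list, against 7.84% of all genes, and the list's median log2 fold change was 0.09.

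Il4ra, a receptor chain for the cytokine encoded by Il4, was at 33, 30.7, 49.4 and 37.7 CPM in tumor-derived astrocytes, against 0.432, 0.102, 0 and 0.427 CPM in GNPs (7.23 ± 0.74, adjusted p of 2.34e-05 and 0.00184). It was the one member of the list called without each library in turn and under the GC correction. Il4 itself was at 0.249, 1.23, 0.976 and 0.48 CPM in tumor-derived astrocytes and at 3.46, 3.26, 0.311 and 2.99 CPM in GNPs and was not called. The growth factor Igf1 was at 0.976 to 2.46 CPM in tumor-derived astrocytes and at 2.59 to 4.57 CPM in GNPs, likewise without a call. Pdgfa, a growth factor for oligodendrocyte precursors, was at 284, 618, 600 and 682 CPM in tumor-derived astrocytes and at 103, 111, 95.2 and 108 CPM in GNPs (2.39 ± 0.33, adjusted p of 0.000219 and 0.0108).

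Few Notch and BMP pathway genes were called. Of 16 tested Notch genes 3 were higher (18.8%) and 2 lower (12.5%), against 7.84% and 4.36% of all genes, and under the GC correction, where Hes6 and Rbpj lost their calls, 1 was called in each direction. The fringe enzyme Rfng, which adds sugars to Notch, was at 306, 299, 248 and 324 CPM in tumor-derived astrocytes and at 76.1, 78, 78.2 and 80.2 CPM in GNPs (1.91 ± 0.17). The target gene Hey1 was lower, at 42.9, 48.9, 42.9 and 36.7 CPM in tumor-derived astrocytes and at 133, 134, 128 and 136 CPM in GNPs (-1.63 ± 0.23), as was Rbpj, the DNA-binding partner of Notch, while Lfng and Hes6 were the other higher members. The Notch list had 1 higher and 0 lower without GNP library 3. Of 17 BMP pathway genes the activin receptor Acvr2b was higher (5.88%), while Smad4 and the receptor Bmpr1a were lower (11.8%), and all 3 of these calls were lost under the GC correction. They were also lost without each of the 4 tumor-derived libraries and without GNP library 3.

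Glycolysis genes were higher and sterol synthesis genes lower. Of 18 glycolysis genes 11 were higher (61.1%, against 7.84% of all genes) and 0 lower. Their summed level was 21500 to 23700 CPM in tumor-derived astrocytes against 7240 to 7790 CPM in GNPs. The higher members were Gpi1, the 3 phosphofructokinases Pfkl, Pfkm and Pfkp, Tpi1, Gapdh, Eno1, Eno2, Pkm, Ldha and Ldhb. The hexokinases Hk1 and Hk2 and the glucose carriers Slc2a1 and Slc2a3 were not called. Eno1, an enolase, was at 3100, 2380, 2230 and 2120 CPM in tumor-derived astrocytes and at 334, 344, 486 and 348 CPM in GNPs (2.7 ± 0.18, adjusted p of 1.51e-06 and 0.000416). Eno2, the neuronal enolase, was at 180, 114, 67.1 and 138 CPM in tumor-derived astrocytes and at 1.19, 0.815, 0.623 and 0.747 CPM in GNPs (7.19 ± 0.42, adjusted p of 5.61e-07 and 0.000252). Gapdh and Pkm, named after their values were seen, were at 4280, 6990, 6990 and 7640 CPM and at 6320, 5980, 5660 and 6420 CPM in tumor-derived astrocytes, against 1470 to 1640 CPM and 2020 to 2330 CPM in GNPs. The count was 6 without GNP library 3 and 11 under the GC correction.

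**Figure D4:**
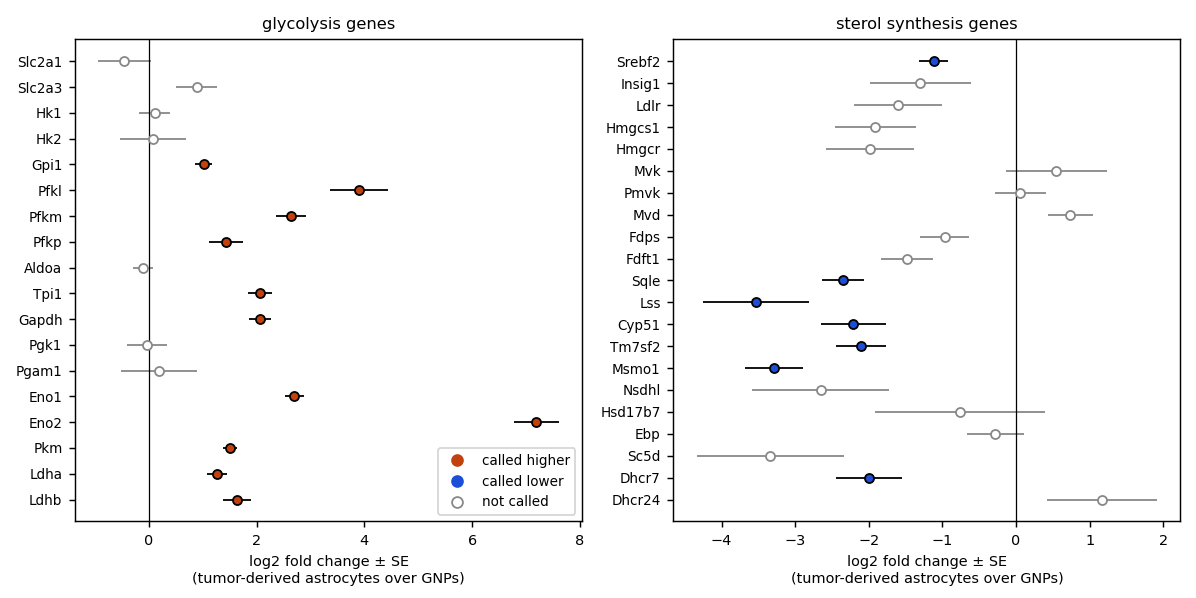
Points are log2 fold changes of tumor-derived astrocytes over GNPs with standard errors for tested glycolysis genes (left) and sterol synthesis genes (right), filled where both fits made a call. All 11 called glycolysis genes lie above 0 and all 7 called sterol genes lie below 0.

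Of 21 tested sterol synthesis genes 7 were lower and 0 higher, where 4.36% of all genes were lower, and the median log2 fold change was -1.6. With all 12 libraries alone, 13 were lower, where 12.9% of all genes were lower. Msmo1, which removes methyl groups from the sterol ring, was at 36.3, 16.1, 13.1 and 18.2 CPM in tumor-derived astrocytes and at 199, 201, 218 and 202 CPM in GNPs (-3.29 ± 0.39, adjusted p of 7.52e-05 and 0.00252). Sqle, the squalene epoxidase, was at 80.1, 46.4, 54.1 and 47.6 CPM in tumor-derived astrocytes and at 259, 276, 343 and 282 CPM in GNPs (-2.35 ± 0.29). Tumor-derived library 1 was the highest of its group for both genes and still below every GNP library. The lanosterol synthase Lss was at 8.6, 3.19, 3.47 and 6.43 CPM in tumor-derived astrocytes and at 66.7, 69.1, 40.3 and 74.8 CPM in GNPs (-3.53 ± 0.72). Cyp51, Tm7sf2, Dhcr7 and Srebf2, the last a transcription factor of this pathway, completed the 7. The mevalonate enzymes Mvk, Pmvk and Mvd had positive log2 fold changes of 0.55, 0.06 and 0.74 without a call. The count was 2 without tumor-derived library 2 and 2 without library 4, 3 without GNP library 3, and 5 under the GC correction, where 2.07% of all genes were lower.

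Promoters of sterol genes in mammals often hold CCAAT boxes, sites that nuclear factor Y can bind. The promoters of this list were looked at because 7 of its 21 tested members were called lower. RefSeq windows from 250 bases before to 50 bases after the start (build GRCm38.p6) were given for 16 of the 22 list members. All 16 held the letters CCAAT on either strand, against 41.1% of 27025 genes with a window and 45.5% of 477 genes called lower. Since all 16 held them, the letters do not set the lower members apart from the others. A match is a description of letters and not a site of binding. The windows of 3 lower genes follow, 5′ to 3′ on the strand of the gene, with CCAAT or its reverse complement ATTGG in capitals.
Msmo1 (chr8:64733529-64733828, minus strand): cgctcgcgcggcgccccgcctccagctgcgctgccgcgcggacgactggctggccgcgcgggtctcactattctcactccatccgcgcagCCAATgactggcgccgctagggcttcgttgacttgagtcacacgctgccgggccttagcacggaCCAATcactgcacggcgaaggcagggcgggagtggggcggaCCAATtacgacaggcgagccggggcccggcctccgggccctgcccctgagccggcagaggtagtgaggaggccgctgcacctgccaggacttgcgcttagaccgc
Cyp51 (chr5:4104648-4104947, minus strand): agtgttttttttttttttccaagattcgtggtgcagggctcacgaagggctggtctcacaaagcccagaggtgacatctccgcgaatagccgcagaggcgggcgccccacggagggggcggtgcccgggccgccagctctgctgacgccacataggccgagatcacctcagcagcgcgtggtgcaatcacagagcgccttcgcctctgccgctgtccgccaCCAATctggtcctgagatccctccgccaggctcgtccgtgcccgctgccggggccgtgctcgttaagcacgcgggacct
Lss (chr10:76531355-76531654, plus strand): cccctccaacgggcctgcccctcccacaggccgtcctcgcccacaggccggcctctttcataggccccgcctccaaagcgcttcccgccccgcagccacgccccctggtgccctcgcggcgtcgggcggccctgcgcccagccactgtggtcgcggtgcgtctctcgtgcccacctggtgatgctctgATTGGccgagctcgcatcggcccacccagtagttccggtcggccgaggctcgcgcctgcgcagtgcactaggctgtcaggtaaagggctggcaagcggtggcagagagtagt

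Lysosome genes were higher as well, with 9 of 23 tested (39.1%, against 7.84% of all genes) and 0 lower. Ctsd, the major aspartic protease of lysosomes, was at 1990, 1910, 1940 and 1850 CPM in tumor-derived astrocytes and at 165, 146, 197 and 148 CPM in GNPs (3.55 ± 0.25, adjusted p of 1.77e-06 and 0.000497). Its 4 tumor-derived libraries were nearly equal. Ctsb, Ctsf, Ctsh, Ctss, Ctsz, Hexa and Psap were also among the members called, and Ctss is also on the microglial list. The count was 4 without GNP library 3 and 6 under the GC correction.

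Chaperone and ER stress genes gave 2 higher (9.52%) and 5 lower (23.8%) of 21, against 7.84% and 4.36% of all genes. The cytosolic chaperone Hsp90ab1 was at 5060, 5770, 6500 and 5600 CPM in tumor-derived astrocytes and at 2300, 2340, 2500 and 2320 CPM in GNPs (1.28 ± 0.17), and its partner Dnajb1 was higher too. The lower ones were all of the endoplasmic reticulum or its stress response, namely Hspa5, Hsp90b1, Pdia3, Herpud1 and Xbp1. Xbp1, the transcription factor of the unfolded protein response, was at 2.49, 3.07, 4.12 and 5.09 CPM in tumor-derived astrocytes and at 18.9, 21.3, 21 and 19.4 CPM in GNPs (-2.44 ± 0.36, adjusted p of 0.000329 and 0.00638). Under the GC correction 1 was higher and 2 lower, and without GNP library 3, 0 and 1. Over all genes, 5.83% were higher and 2.07% lower under the GC correction. Immediate early genes gave 0 calls of 14 tested. Hypoxia targets gave 1 in each direction of 15 (6.67% each, against 7.84% and 4.36% of all genes), Ldha higher and Ndrg1 lower.

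Subunits of the respiratory chain and of the ribosome went in both directions within the same complexes. Of 91 tested nuclear respiratory chain genes 16 were higher and 16 lower (17.6% each, against 7.84% and 4.36% of all genes), with a median of -0.11. Within the ATP synthase, Atp5d was at 1920, 4010, 3030 and 3410 CPM in tumor-derived astrocytes against 404, 386, 558 and 385 CPM in GNPs (2.84 ± 0.26), while Atp5j was at 79.7, 90.1, 66.8 and 88.2 CPM in tumor-derived astrocytes against 384, 394, 346 and 398 CPM in GNPs (-2.23 ± 0.19). Of 80 tested cytosolic ribosomal protein genes 9 were higher (11.2%) and 6 lower (7.5%), against 7.84% and 4.36% of all genes, with a median of -0.03. Rpl13a was at 11000, 18900, 12500 and 13200 CPM in tumor-derived astrocytes and at 4030 to 4450 CPM in GNPs (1.73 ± 0.23), and Rps27l was lower (-2.08 ± 0.31). Ribosomal protein genes and several subunits have near-identical copies in the genome, so these values are uncertain. The median transcript GC content was 52.6% in the higher and 46.1% in the lower respiratory chain genes, and 53.6% and 46.2% in the higher and lower ribosomal ones. With the GC correction, 13 respiratory chain genes were higher and 9 lower, and 3 ribosomal protein genes were higher and 4 lower. Without GNP library 3, 5 respiratory chain genes were higher and 5 lower, and 0 ribosomal protein genes were higher and 1 lower.

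The 10 largest changes among well-measured genes in each direction include list members already given. Of the higher ones, S100a1, a calcium-binding protein, was at 45.1, 158, 135 and 233 CPM in tumor-derived astrocytes and at 0 in all GNPs, at least 453-fold higher. Wnt7a, a ligand of the canonical Wnt pathway, was at 13.8, 118, 88.2 and 77.1 CPM in tumor-derived astrocytes and at 0 in all GNPs, at least 236-fold higher. Gngt2, a G protein subunit, was at 39.1 to 56.9 CPM in tumor-derived astrocytes and at 0 in all GNPs. The other 7 of these 10 were Aif1, C1qb, Cldn5, Gabrd, Higd1b, Pcp2 and Trem2, described above. Of the lower genes, Lss is on the sterol list.

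Among the lower 10, the kinase gene Stk35 was at 5.99, 11.3, 18.8 and 11.4 CPM in tumor-derived astrocytes and at 297, 253, 42.7 and 218 CPM in GNPs (-4.09 ± 0.67, adjusted p of 0.000673 and 0.0116). The histone demethylase Kdm3a was at 3.37, 3.44, 4.45 and 4.13 CPM in tumor-derived astrocytes and at 79.1, 82.3, 14.8 and 89 CPM in GNPs (-4.1 ± 0.67). In both genes GNP library 3 lay far below the other GNPs and still above every tumor-derived library. Lsm1, of the complex that starts decay of messenger RNA, was at 2.7 to 6.23 CPM in tumor-derived astrocytes and at 25.3 to 55.6 CPM in GNPs (-3.43 ± 0.46). Cwc22, Efcab11, Ccdc58, AW549877, Osgin2 and Cfap36 made up the rest with log2 fold changes between -4.81 and -3.46. At high level, Tmsb4x, an actin-binding peptide, was lower at 594, 375, 405 and 370 CPM in tumor-derived astrocytes against 1680, 1810, 1500 and 1760 CPM in GNPs (-1.95 ± 0.33).

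The fold change followed the GC content of the transcript. When the 14348 tested genes with a GC value were cut into 5 equal bins, the median log2 fold change went up with GC content, at -0.77, -0.38, 0.06, 0.54 and 0.98 from the lowest bin to the highest. The share of genes called higher was 2.44% in the lowest and 16.5% in the highest bin, and the share called lower was 9.41% in the lowest and 0.802% in the highest. Across genes, the Spearman correlation of level with GC content was 0.25 to 0.3 in tumor-derived libraries and 0.05 to 0.06 in GNP libraries, as a description of these libraries with genes that are not independent. Correcting each library for GC content, an alternative chosen after the data were seen, left 839 genes higher and 298 lower, which kept 65.4% of the higher and 32% of the lower genes called without it. Of the gene lists, astrocyte markers then had 14 higher, microglial markers 10, glycolysis genes 11, and sterol synthesis genes 5 lower. Atoh1 was called lower with that correction, with a log2 fold change of -3.25. The cause of this relation was not tested.

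**Figure D5:**
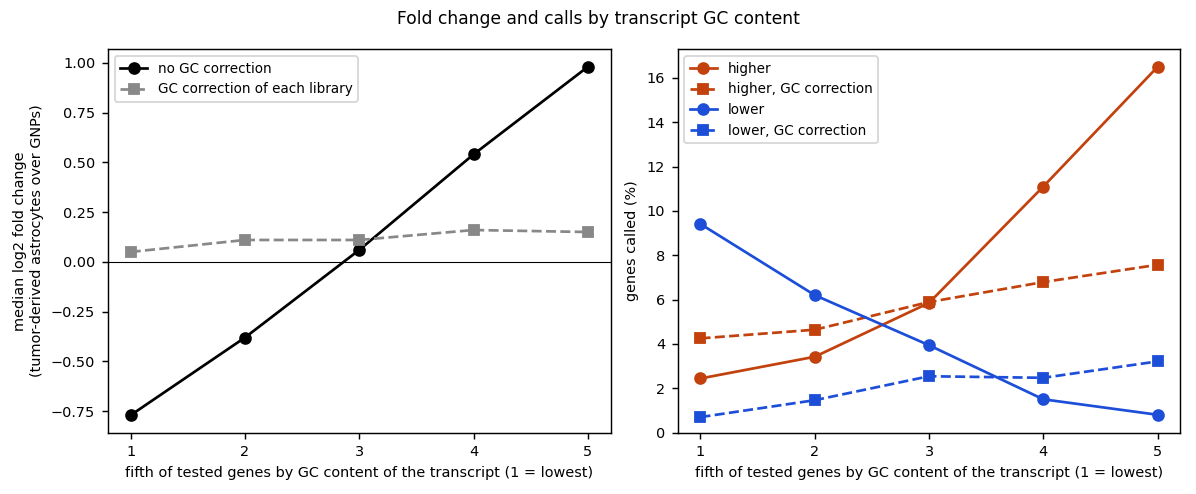
Left, the median log2 fold change of tumor-derived astrocytes over GNPs in each of 5 bins of tested genes by transcript GC content, without (solid) and with (dashed) a GC correction of each library. Right, the percentage of genes called higher and lower in the same bins, which without the correction spans 2.44% to 16.5% for higher and 9.41% to 0.802% for lower calls.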

How the data were processed

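The authors deposited 1 table of read counts per gene for the 12 libraries, and per the submitters' processing notes FastQC, STAR and mm10 were used. Not given in the sources used here: counting program, annotation and strand setting. Values of overlapping, antisense and near-identical genes are therefore uncertain. The table had 47284 lines. Dropping 767 repeats left 46517 Ensembl genes, 27 symbols turned into dates were restored, and 37 mitochondrial genes held 0 counts. Columns of other samples numbered 0. Replicates were numbered in accession order within a group, which pairs nothing.

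Genes passed edgeR's filterByExpr (minimum count 10, minimum total 15) and were tested with edgeR 4.0.16 quasi-likelihood fits in R 4.3.3 with TMM scaling and Benjamini-Hochberg adjustment over all tested genes. One fit used 12 libraries and the other the summed GNP trio, with a threshold of 0.05 in both. Normal astrocytes share the gene filter, the scaling and the estimate of the spread. Reads carry no molecular identifiers, and a gene at 0 in every GNP library was set to 3 counts per library for a lower bound. Transcript GC content came from the longest GENCODE M21 transcript.

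Genes were named by rule: the 10 largest changes in each direction with a mean of at least 20 CPM and no overlap, up to 2 per list and direction by smallest p, a set of lineage genes, and up to 3 of highest level in each direction. List members given beyond these were chosen after their values were seen. The members and lists were chosen with earlier results of these data known. Alternatives were other scalings, filters, DESeq2 1.42.0, a fit of the 2 groups alone, a fold minimum, each library left out and, added later, a GC correction. A few list members are counted in their lists but not reported here by name.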

Additional observations from a re-analysis of the deposited data

Results flagged for a closer look

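In 13 of 127 named genes (10.2%), 1 of the 4 tumor-derived astrocyte libraries stood apart from the other 3. Chance alone gives this in about 1 in 20 groups of independent, normally distributed values. The named genes are not independent, so the 10.2% is not a test against that share. The value given is the gap to the nearest library divided by the range of the group, both taken on log2(CPM + 1). For Xist and Shh it is 1.0 because the other 3 libraries were all at 0. Replicate 1 stood apart in 9 genes. It was the highest for Neurod1 (0.912, levels of 50.7 to 109 CPM), Xist (1.0, 0 to 7.48 CPM), Pcp2 (0.918, 32.5 to 166 CPM) and Aqp4 (0.86, 7.16 to 12.7 CPM). It was the lowest for Pdgfa (0.853, 284 to 682 CPM), Gapdh (0.845, 4280 to 7640 CPM), Ncan (0.892, 77.9 to 194 CPM), Ly6c1 (0.849, 4.11 to 63.4 CPM) and Aif1 (0.845, 79.4 to 196 CPM). Replicate 4 was the highest for Shh (1.0, 0 to 1.44 CPM) and Gadd45a (0.876, 0.246 to 1.06 CPM). It was also the highest for AW549877 (0.862, 2.49 to 4.41 CPM). Replicate 2 was the lowest for Gli1 (0.838, 56.6 to 68.7 CPM).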

How the results depend on the processing

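Both fits together called 1129 genes higher in tumor-derived astrocytes and 628 lower. These numbers became 2900 and 1852 with the 12-library fit alone, 2263 and 971 with DESeq2, and 2306 and 1829 with the 2 groups fitted alone. The GC correction, chosen after seeing the data, gave 839 higher and 298 lower genes. Leaving out each library in turn gave 438 to 1163 higher and 138 to 588 lower genes, lowest without GNP replicate 3, where the trio is the lone GNP sample and is assumed to vary like the other groups. Size factors of DESeq2 gave 1238 and 476, upper quartile factors 1166 and 554, no filter 1110 and 470, a filter at 10 CPM 1070 and 690, leaving out ribosomal protein genes 1170 and 553, and a minimum of 2-fold 1117 and 612. No called gene of the comparison was called in the opposite direction under any of these settings. Of 98 named genes that were called, 45 lost the call without GNP replicate 3 and 26 under the GC correction. Some genes without a call turned direction. Under the GC correction the log2 fold change was 0.38 for Dcx, 0.11 for Nfia, 0.33 for Mki67, -0.6 for Gli1, 0.65 for Zbtb20 and -0.29 for Olig2, and for Zbtb20 it was -0.28 to 0.07 as libraries were left out. The cause was not tested. No paired analysis was possible because the labels give no replicate numbers that groups share. Depth limits genes such as Shh, which had too few counts to be tested.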
